A study of Mus musculus with 6 samples.

Results

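The ATP-binding cassette (ABC) transporter family was followed in liver RNA of mice labelled deficient in Ugcg and of mice labelled wildtype. Members were every row of the expression table whose mouse gene symbol starts with Abc, a subfamily letter from a to g and a digit. They numbered 42 of the 16331 gene probe sets, with 1 probe set for each gene. The rule itself uses no expression value, although it was set with earlier results of these data known. The arrays came from 6 liver samples on Affymetrix arrays, 3 labelled wildtype (426, 428 and 430) and 3 labelled Ugcg-deficient (427, 429 and 431, called knockout here after their label). Ugcg encodes the enzyme that puts glucose on ceramide, the first step towards most glycosphingolipids. The labels used here give no strain, sex, age, treatment or way in which Ugcg was removed, and whether every array is from an animal of its own is not said either. The p-values thus cover the spread among these arrays alone, and part of that spread may be technical.

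ABC proteins are membrane pumps that use ATP to move a substrate across a membrane or from one leaflet to the other. In hepatocytes they line the canalicular membrane, where they secrete bile salts, phospholipid, cholesterol and conjugated drugs into bile, and they also load cholesterol onto HDL, carry fatty acyl-CoA into peroxisomes and serve heme synthesis in mitochondria. A few have been proposed as carriers of glucosylceramide, the product of Ugcg, and in cultured cells several multidrug pumps have been linked to glycosphingolipid levels. Members of the E and F subfamilies lack the membrane-spanning part and work in the cytosol.

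No member of the family passed the test for a difference between knockout and wildtype. Every difference below is the knockout mean less the wildtype mean, in log2. This difference was above 0 for 23 members and below 0 for 19, with a median of 0.0130, beside 0.00586 over all 16331 gene probe sets. Of all probe sets, 8575 were above 0 and 7756 below. The size of the difference, whatever its sign, had a median of 0.0646 in the family and 0.0625 over all probe sets. At an adjusted p under 0.05 (limma, Benjamini-Hochberg over all gene probe sets) 0 of the 42 members were called, beside 4 of all probe sets, or 0.0245%. At an unadjusted p under 0.05 there were 2 members, Abcf2 and Abcb10, which is 4.76% of the family, beside a background of 4.99%. The wildtype and knockout values did not overlap for 4 members (Abcb10, Abcf2, Abcg4 and Abca16, all higher in knockout), or 9.52%, beside 9.57% of all probe sets. All 3 shares lay at or near the background.

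**Figure D1:**
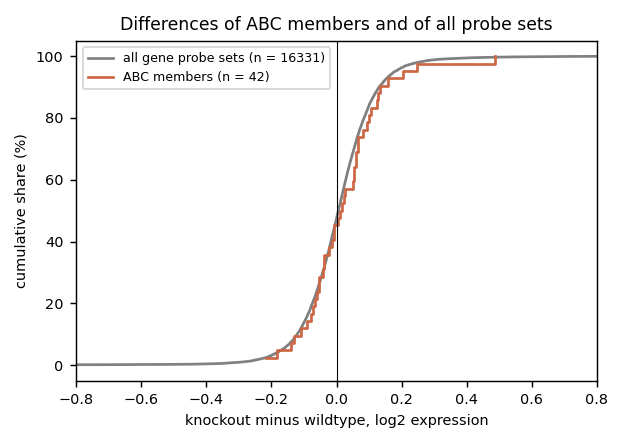
Cumulative share (vertical axis, percent) of the 42 ABC members (orange steps) and of all 16331 gene probe sets (grey line) by their knockout minus wildtype difference in log2 expression (horizontal axis). The curves run close together, with medians of 0.0130 and 0.00586, and Abcb10, at 0.49, is the last step on the right.

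With 3 arrays a group, the 95% intervals of the members (not adjusted for the number of members) give the range of differences compatible with these values. They do not say which differences would have passed the test. For 41 of the 42 members the interval lay inside a 1.5-fold difference in either direction, which is 0.585 in log2, and the exception was Abcb10 at the upper end. Over all 16331 gene probe sets this held for 15863. For 24 of the 42 members it lay inside 0.322 on the log2 scale, beside 11921 of the 16331 probe sets, a larger share than in the family. The standard error of a member's difference had a median of 0.0998, against 0.0847 over all probe sets. Of the 42 members, 15 had a mean at or below the 40th percentile of all probe sets, where a probe set may hold little signal above background, and 27 lay above it; both unadjusted calls were among the 27.

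**Figure D2:**
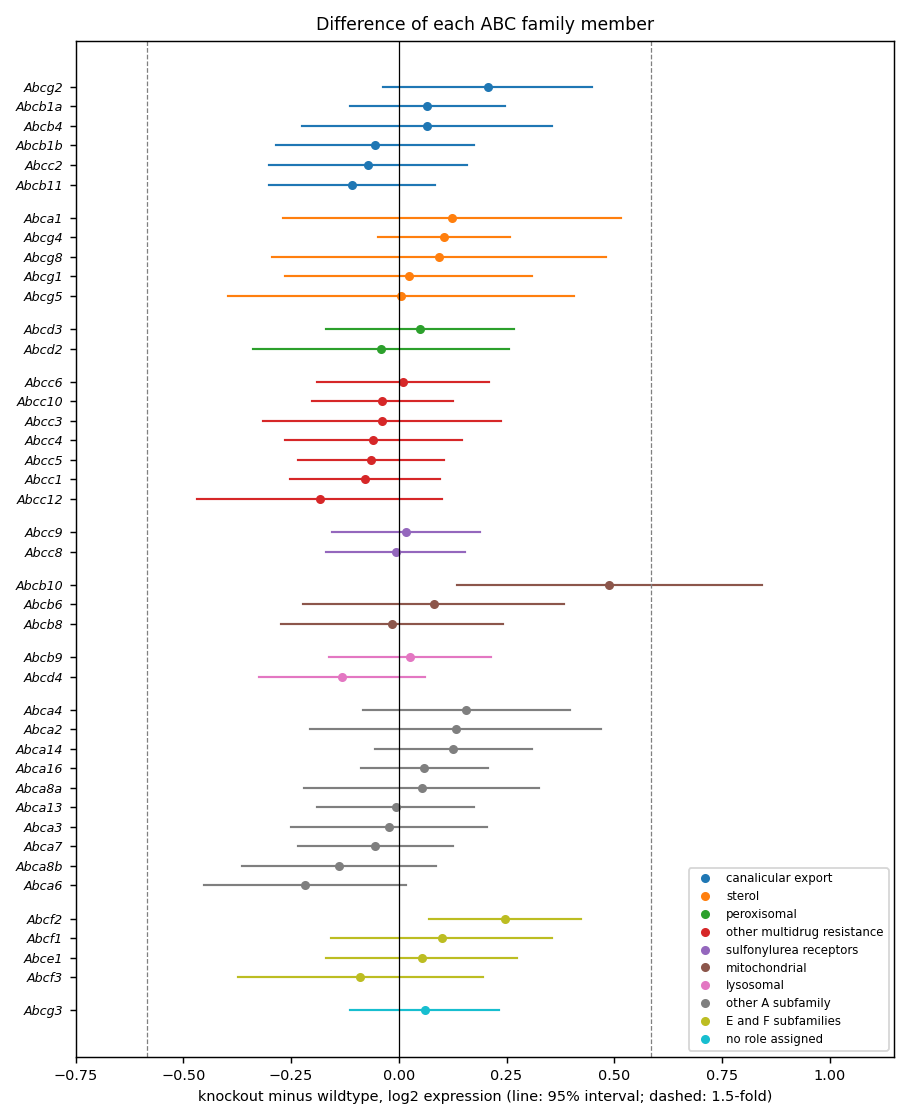
Knockout minus wildtype difference in log2 expression (horizontal axis) for each of the 42 ABC members, grouped and coloured by role, with a line for the 95% interval and dashed lines at a 1.5-fold difference. The intervals of Abcb10 (0.13 to 0.84) and Abcf2 (0.07 to 0.42) lie above 0, and only that of Abcb10 crosses a dashed line.

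Facts of the arrays as a whole bear on these values. The medians of the arrays lay within 0.0190 of each other, and the first principal component, with 31.5% of the variance, set wildtype 430 (14.5) and knockout 427 (11.9) apart from the others (-9.44 to -3.69). The Ugcg probe set read 6.84 ± 0.03 on wildtype and 6.83 ± 0.25 on knockout arrays (SD, n = 3 each; difference -0.00879, limma adjusted p = 0.998). Knockout 427 read 7.12, the highest of the 6 arrays, whereas knockout 429 (6.70) and 431 (6.68) lay below every wildtype array (6.81 to 6.87). The library labelled knockout 427 thus went against its label on this probe set. Where its probes lie is not given in the sources used here, and the probe set therefore does not check the labels. Knockout 427 stands throughout for the library so labelled, and every direction rests on the labels. Without that library, 0 members were called by limma at an adjusted p under 0.05 and 2 at an unadjusted one. The labelled tissue matched its markers: the hepatocyte gene Alb read 14.60 to 14.69 over the arrays, and none of the 10 marker lists had a gene that passed the test. All 9 measured genes of exocrine pancreas were highest in wildtype 430, where their mean was 1.88 above the wildtype mean of the list. The other wildtype arrays were at -0.95 and -0.93 on that scale and the knockout arrays between -1.07 and -0.84. Neutrophil and adipose lists were highest in knockout 431 (0.78 and 0.85 above the wildtype mean), the Kupffer cell list was lowest there (-0.44), and the cholangiocyte list was highest in knockout 429 (0.38). Not every marker followed its list. Knockout 429 was highest for Krt19 (7.60, wildtype mean 6.41) and Epcam (6.86, wildtype mean 6.28), but not for Krt7, Sox9 and Cftr. Knockout 431 was highest for S100a8 and S100a9, but Mpo was highest and the Kupffer cell gene Marco lowest in wildtype 430. In whole liver, fewer cells of a type and less RNA per cell cannot be told apart. Wildtype 430 was the lowest array for 14 of the 42 members, more than any other array, and the highest for 7. Wildtype 426 was the highest array for 12, the most of any. The same counts over all probe sets are not given here, so they cannot be read as a trait of the family.

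Canalicular export pumps drive bile formation. All 6 measured members overlapped between the groups (3 above 0, 3 below, median 0.00488). Array values below are always given in the order 426, 428 and 430 for wildtype, then 427, 429 and 431 for knockout. Abcb11, the bile salt export pump, read 12.01, 11.83 and 11.83 on wildtype and 11.71, 11.90 and 11.73 on knockout arrays. Both 427 and 431 lay below every wildtype array, but knockout 429 lay above 428 and 430. The means were 11.89 ± 0.10 and 11.78 ± 0.11 (SD, n = 3 each), a difference of -0.11 (SE 0.0852, 95% interval -0.30 to 0.08, adjusted p = 0.982).

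Abcb4, the floppase that supplies phosphatidylcholine to bile, read 10.85, 11.06 and 10.63 on wildtype and 10.90, 11.11 and 10.72 on knockout arrays. The groups covered nearly the same range, with a difference of 0.06 (95% interval -0.23 to 0.35, adjusted p = 0.995). Abcc2, the pump for bilirubin glucuronides and other conjugates, read 10.002, 9.65 and 9.92 on wildtype and 9.70, 9.87 and 9.78 on knockout arrays. All 3 knockout values fell between the lowest and highest wildtype value, and the difference was -0.07 (95% interval -0.30 to 0.16, adjusted p = 0.987).

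Abcg2, a multidrug and urate exporter, read 9.68, 10.06 and 9.82 on wildtype and 10.11, 10.15 and 9.94 on knockout arrays. Knockout 427 and 429 exceeded all wildtype arrays, whereas knockout 431 lay below wildtype 428. Its difference of 0.21 (SE 0.107, 95% interval -0.04 to 0.45) had the smallest p of the canalicular group and was not called (adjusted p = 0.982). With 1 array left out it ran from 0.12 (without wildtype 426) to 0.31 (without wildtype 428). The mouse has a pair of genes for P-glycoprotein, Abcb1a and Abcb1b, which export hydrophobic drugs. Abcb1a read 6.17, 6.12 and 6.11 on wildtype and 6.17, 6.33 and 6.10 on knockout arrays, with knockout 429 alone above the rest (difference 0.07, adjusted p = 0.986). Abcb1b read 6.24, 6.35 and 6.54 on wildtype and 6.48, 6.21 and 6.28 on knockout arrays, with the groups intermixed (difference -0.05, adjusted p = 0.994). Both P-glycoprotein probe sets lay at or below the 40th percentile. Their genes are close copies, and whether their probes tell them apart is not given in the sources used here.

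Sterol transporters put cholesterol on HDL (Abca1 and Abcg1) or move it into bile (the partners Abcg5 and Abcg8). Their 5 measured members all had a difference above 0 (0.00488 to 0.12, median 0.0928), and none was called. Of all 16331 probe sets, 8575 were above 0. With 1 array left out, Abcg1, Abcg5 and Abcg8 could each turn below 0, whereas Abca1 and Abcg4 stayed above it. Abca1 read 8.66, 8.66 and 9.26 on wildtype and 9.18, 8.73 and 9.05 on knockout arrays. Wildtype 430 was the highest of all, the other wildtype arrays were the lowest, and the knockout arrays lay between. The difference was 0.12 (SE 0.173, 95% interval -0.27 to 0.52, adjusted p = 0.987), and with 1 array left out it ran from 0.02 (without wildtype 426 or 428) to 0.32 (without wildtype 430, adjusted p = 0.677).

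Abcg1 read 7.34, 7.52 and 7.68 on wildtype and 7.28, 7.61 and 7.71 on knockout arrays, and the groups covered the same range (difference 0.02, 95% interval -0.26 to 0.31, adjusted p = 0.996). Macrophages also express Abca1 and Abcg1. The 5 measured Kupffer cell markers, with a list mean of -0.13 to 0.20 around the wildtype mean on wildtype arrays and -0.44 to 0.25 on knockout arrays, overlapped between the groups, and their part in these values was not tested. Abcg4, a relative of Abcg1 known from brain, read 6.33, 6.24 and 6.27 on wildtype and 6.42, 6.40 and 6.33 on knockout arrays. Its groups did not overlap, by a gap between wildtype 426 and knockout 431 that was small beside the difference of 0.10 (95% interval -0.05 to 0.26, adjusted p = 0.982), and its mean lay at or below the 40th percentile.

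Abcg5 and Abcg8 encode the 2 subunits of 1 pump and lie head to head on the chromosome, so that their promoters overlap. The RefSeq windows of assembly GRCm38.p6 were each 300 bases long and lay mostly upstream of a start. The Abcg5 window had 209 bases in common with an Abcg8 window, and their starts lay 110 bases apart. That window of Abcg8 (chr17:84682871-84683170, plus strand) is printed because it holds both starts and the stretch from which both genes are read. Capitals mark GATAA on either strand, the core that GATA factors bind. A further Abcg8 window (chr17:84676052-84676351, plus strand), for another start, did not reach the Abcg5 window and held no GATAA.

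Abcg8 promoter: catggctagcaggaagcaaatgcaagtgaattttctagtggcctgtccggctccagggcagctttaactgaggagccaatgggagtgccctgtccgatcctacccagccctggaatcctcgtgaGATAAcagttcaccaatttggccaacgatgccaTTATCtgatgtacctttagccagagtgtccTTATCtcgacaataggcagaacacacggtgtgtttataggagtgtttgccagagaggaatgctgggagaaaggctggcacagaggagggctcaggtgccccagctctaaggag

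The string GATAA was found 3 times in this window, with first bases at -126, -93 and -63 from the Abcg8 start, all of them in the stretch shared with Abcg5. Among all 32851 promoter windows of that length in the table, 25.4% held GATAA at least once on either strand, and 25.6% of the 39 windows of ABC members did (32 of the 42 members had a window). AGGTCA, the core site of many nuclear receptors, was not found in it; 16.3% of all windows and 17.9% of the member windows held AGGTCA. The longer CAAGGTCA, which contains AGGTCA, was in 1.56% of all windows and 2 of the 39 member windows (5.13%). A match describes letters in the window and no binding was measured.

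Abcg5 read 8.98, 9.31 and 8.49 on wildtype and 8.84, 8.94 and 9.02 on knockout arrays. Abcg8 read 8.59, 8.59 and 7.94 on wildtype and 8.34, 8.66 and 8.40 on knockout arrays. Wildtype 430 was by far the lowest array for both genes, and the knockout arrays lay inside the wildtype range, except knockout 429, which was the highest array for Abcg8. Abcg5 differed by 0.00488 (SE 0.177, 95% interval -0.40 to 0.41, adjusted p = 1) and Abcg8 by 0.09 (SE 0.171, 95% interval -0.29 to 0.48, adjusted p = 0.993). Without wildtype 430 the differences were -0.22 and -0.12. Across the 6 arrays the Pearson correlation of Abcg5 and Abcg8 was 0.82 (exact permutation p = 0.0667, 0.283 adjusted over 6 gene pairs) and Spearman's rho was 0.55 (exact permutation p = 0.272, adjusted 0.45). Without the arrays farthest from the Abcg5 median, wildtype 430 and 428, r was 0.31 over 4 arrays. Leaving out the extremes of a gene narrows its range and can lower r by itself, so this value does not show what the relation rested on. With group means subtracted r was 0.83, and after quantile normalization 0.81. The pancreatic transcripts were highest on wildtype 430, the array where Abcg5 and Abcg8 were lowest, and their part was not tested.

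**Figure D3:**
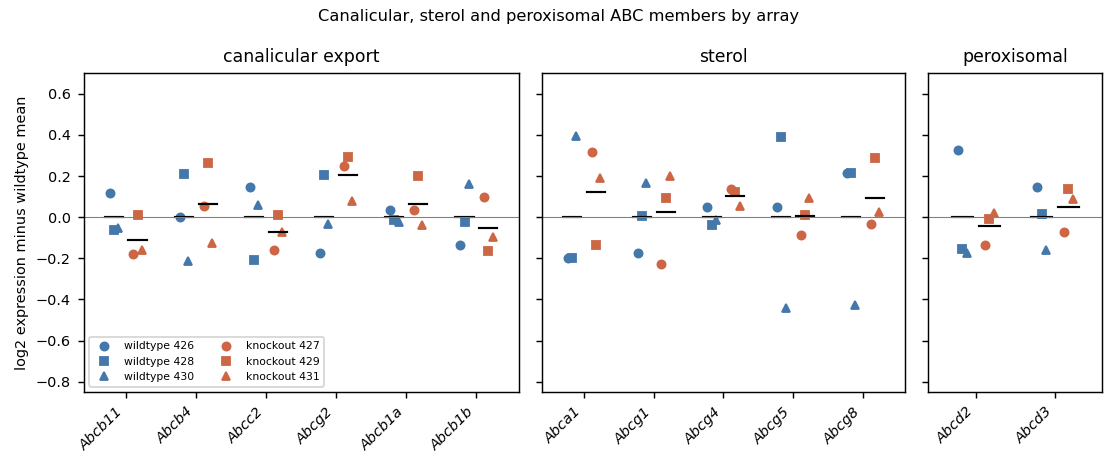
Log2 expression minus the wildtype mean of the gene (vertical axis) for canalicular, sterol and peroxisomal members, with 1 point per array (blue wildtype, orange knockout, the shape giving the array) and black bars at group means. Points of both groups intermix for every gene shown except Abcg4, and wildtype 430 (blue triangle) is the lowest point for Abcg5 and Abcg8 and the highest for Abca1.

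Of 5 further pairs of related genes, none had a correlation across arrays that passed. Abcb4 and Abcb1a, of a cluster on chromosome 5 in which Abcb1b starts between them, had r = 0.69 (exact permutation p = 0.0944, adjusted 0.283) and rho = 0.75 (p = 0.111, adjusted 0.45, exact permutation), with r = 0.22 once the 2 arrays farthest from the Abcb4 median were left out. For Abcb1a and Abcb1b r was -0.51 (exact permutation p = 0.325), for Abcc1 and Abcc6 -0.42 (p = 0.394), for Abca1 and Abcg1 0.21 (p = 0.625) and for Abca8a and Abca8b -0.04 (p = 0.956), with adjusted p from 0.592 to 0.956. Their rho values were -0.52, -0.54, 0.29 and 0.20 (exact permutation p from 0.297 to 0.722, adjusted 0.45 to 0.722), and r without the 2 farthest arrays was -0.48, -0.79, 0.79 and -0.03.

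Peroxisomal members import very long chain and branched fatty acyl-CoA for chain shortening. Abcd3, the main ABC protein of liver peroxisomes, read 12.98, 12.85 and 12.68 on wildtype and 12.76, 12.97 and 12.92 on knockout arrays, with all knockout values inside the wildtype range. Abcd3 differed by 0.05 (SE 0.0964, 95% interval -0.17 to 0.27, adjusted p = 0.994). Abcd2 read 6.56, 6.07 and 6.06 on wildtype and 6.09, 6.22 and 6.25 on knockout arrays. One array, wildtype 426, stood above the other 5, and the difference of -0.04 (95% interval -0.34 to 0.26, adjusted p = 0.996) was 0.12 without it. Abcd2 lay at or below the 40th percentile. Abcd4, which works with cobalamin release from lysosomes and not in peroxisomes, read 7.13, 7.37 and 7.27 on wildtype and 7.10, 7.05 and 7.21 on knockout arrays; knockout 427 and 429 were the lowest values, and the difference was -0.13 (95% interval -0.32 to 0.06, adjusted p = 0.982). The other lysosomal member, the peptide transporter Abcb9, differed by 0.03 (adjusted p = 0.996).

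Putative glycolipid carriers are of interest next to Ugcg because they could handle its product. Of this group 4 were measured, with differences of 0.13 for Abca2, 0.07 for Abcb1a, -0.05 for Abcb1b and -0.08 for Abcc1; the keratinocyte glucosylceramide carrier Abca12 was not analysed here. Abca2, a lysosomal lipid transporter linked to sphingolipids, read 7.19, 7.48 and 7.11 on wildtype and 7.30, 7.16 and 7.71 on knockout arrays. Knockout 431 was the highest array and the other knockout arrays lay within the wildtype range (95% interval -0.21 to 0.47, adjusted p = 0.986; -0.0283 without knockout 431). Abcc1, the multidrug resistance protein that exports glutathione conjugates and short-chain sphingolipids, read 6.18, 6.30 and 6.26 on wildtype and 6.16, 6.26 and 6.08 on knockout arrays. Its groups overlapped (95% interval -0.25 to 0.10, adjusted p = 0.984), and its mean lay at or below the 40th percentile.

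The multidrug resistance proteins of the C subfamily outside the canaliculus export conjugates, drugs and nucleotides, in liver partly across the basolateral membrane. Of 7 measured members, 6 had a difference below 0 and 1 above (-0.18 to 0.00911, median -0.0589), with adjusted p from 0.982 to 0.996. Abcc12, of uncertain substrate, had the smallest p of the group: it read 6.54, 6.44 and 6.62 on wildtype and 6.48, 6.05 and 6.52 on knockout arrays. The low value of knockout 429 set the difference of -0.18, which was -0.0327 without that array. The basolateral conjugate pump Abcc3 differed by -0.04 (95% interval -0.31 to 0.24), Abcc4, which exports bile salts and cyclic nucleotides, by -0.06 (95% interval -0.27 to 0.15), and Abcc6, the liver pump tied to release of ATP, by 0.00911 (95% interval -0.19 to 0.21). Abcc5 and Abcc10 differed by -0.06 and -0.04. The sulfonylurea receptors Abcc8 and Abcc9, which regulate potassium channels and are not pumps, differed by -0.00749 and 0.02 (adjusted p = 0.996 for each). Abcc9 read 8.18, 8.30 and 8.19 on wildtype and 8.34, 8.21 and 8.17 on knockout arrays.

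The mitochondrial members included the family's largest difference. Abcb10, a transporter of the inner mitochondrial membrane needed for heme synthesis, read 7.57, 7.02 and 7.18 on wildtype and 8.01, 7.64 and 7.57 on knockout arrays. All knockout values were above all wildtype values, although knockout 431 and wildtype 426 were nearly equal. The means were 7.25 ± 0.28 and 7.74 ± 0.24 (SD, n = 3 each), a 1.40-fold difference of 0.49 on the log2 scale (SE 0.156, 95% interval 0.13 to 0.84). Its unadjusted p was 0.0123 and its adjusted p 0.951, so it was not called. When 1 array was left out the difference ran from 0.35 (without knockout 427) to 0.64 (without wildtype 426), and its unadjusted limma p was no longer under 0.05 without wildtype 428 or without wildtype 430 and knockout 427 together.

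The promoter window of Abcb10 (chr8:123983073-123983372, minus strand, GRCm38.p6, RefSeq) is shown because this gene had the largest difference of the family. Neither GATAA nor the core string AGGTCA, nor thus CAAGGTCA, was found in it, which says no more than that these letters are missing from these 300 bases.

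Abcb10 promoter: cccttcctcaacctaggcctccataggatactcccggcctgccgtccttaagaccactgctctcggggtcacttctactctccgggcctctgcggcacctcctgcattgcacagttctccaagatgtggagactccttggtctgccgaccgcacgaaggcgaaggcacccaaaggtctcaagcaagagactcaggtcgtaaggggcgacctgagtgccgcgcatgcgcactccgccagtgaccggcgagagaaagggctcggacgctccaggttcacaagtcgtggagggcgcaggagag

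Abcb6, a porphyrin transporter, and Abcb8, of the inner membrane, differed by 0.08 (95% interval -0.22 to 0.38) and -0.01 (95% interval -0.27 to 0.24), with adjusted p of 0.990 and 0.996. Genes of heme and iron-sulfur synthesis were compared beside them: of 7 measured, 3 had a difference above 0 and 4 below (median -0.00911), and none was called. Slc25a37, the mitochondrial iron importer that binds Abcb10, differed by 0.05 (adjusted p = 0.996), and Cpox, which makes protoporphyrinogen, by -0.17 (adjusted p = 0.982). Alas1, the rate-limiting enzyme of hepatic heme synthesis, spread widely. It read 11.07, 10.30 and 12.51 on wildtype and 12.08, 11.33 and 11.39 on knockout arrays, with the lowest and the highest value both in wildtype (difference 0.30, SE 0.470, adjusted p = 0.987). The one erythroid marker measured, Alas2, differed by -0.18 (limma adjusted p = 0.98), and the part of red blood cells in the Abcb10 values was not tested.

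Among the E and F subfamilies, which act in the cytosol on ribosomes and translation, 3 of 4 measured members had a difference above 0. Abcf2 had the smallest p of the whole family. It read 8.004, 8.11 and 8.19 on wildtype and 8.43, 8.32 and 8.30 on knockout arrays. All knockout arrays lay above all wildtype arrays, with means of 8.10 ± 0.09 and 8.35 ± 0.07 (SD, n = 3 each). The 1.19-fold difference of 0.25 (SE 0.0776, 95% interval 0.07 to 0.42) had an unadjusted p of 0.0114 and an adjusted p of 0.951, and it ran from 0.20 to 0.29 when 1 array was left out. Abce1, the ribosome recycling factor, differed by 0.05 (adjusted p = 0.993), Abcf1 by 0.10 (adjusted p = 0.986) and Abcf3 by -0.09 (adjusted p = 0.987).

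**Figure D4:**
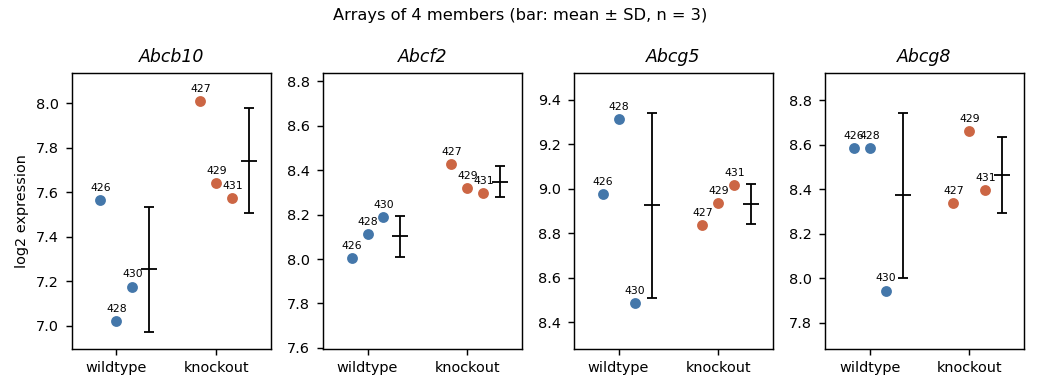
Log2 expression (vertical axis, the same span in each panel) on each array for Abcb10, Abcf2, Abcg5 and Abcg8, with blue points for wildtype, orange points for knockout, array numbers above the points and black bars for the mean and SD (n = 3). Knockout arrays lie above wildtype arrays for Abcb10 and Abcf2, whereas wildtype 430 lies lowest for Abcg5 (8.49) and Abcg8 (7.94).

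The other members of the A subfamily, lipid transporters of varied tissues, split evenly, with 5 of 10 above 0 and 5 below (-0.22 to 0.16, median 0.0226). Abca6, of a gene cluster found in liver among other tissues, read 8.94, 8.92 and 8.83 on wildtype and 8.67, 8.48 and 8.88 on knockout arrays. Knockout 427 and 429 lay below every wildtype array and knockout 431 did not. The difference of -0.22 (SE 0.103, 95% interval -0.45 to 0.02, adjusted p = 0.982) had the smallest p of all members below 0, and ran from -0.12 (without knockout 429) to -0.32 (without knockout 431, adjusted p = 0.684) with 1 array left out. Leaving that array out raised the members at an unadjusted p under 0.05 from 2 to 4, by Abca6 and the retinoid transporter Abca4 (0.25 without it, 0.06 without knockout 429 and 0.16 with all arrays). The share of all probe sets under 0.05 in that refit is not given here, so the rise cannot be read as a trait of the family.

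Abca8b, in the same cluster as Abca6, read 8.21, 8.21 and 8.35 on wildtype and 8.26, 7.92 and 8.18 on knockout arrays, with knockout 429 the lowest (difference -0.14, 95% interval -0.36 to 0.09, adjusted p = 0.982). Its neighbour Abca8a differed by 0.05 (adjusted p = 0.996). Abca14 read 5.73, 5.87 and 5.72 on wildtype and 6.004, 5.87 and 5.82 on knockout arrays, with a difference of 0.13 (adjusted p = 0.982) and a mean at or below the 40th percentile. Abca16, whose groups did not overlap, differed by 0.06 (adjusted p = 0.986), Abca3 by -0.02, Abca7 by -0.05 and Abca13 by -0.00749. The means of Abca16 and Abca13 also lay at or below the 40th percentile. Abcg3, given no role here, read 6.31, 6.28 and 6.25 on wildtype and 6.29, 6.46 and 6.28 on knockout arrays (difference 0.06, adjusted p = 0.987). Relatives without an Abc symbol, the peptide transporters Tap1 (0.15) and Tap2 (0.09) and the chloride channel Cftr (-0.000326), were not called either (adjusted p of 0.982, 0.986 and 1).

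Genes that work with the ABC pumps were counted as a frame: 66 were measured in 8 lists, 33 above 0 and 33 below, with a median of 0.00228, and 0 passed. At an unadjusted p under 0.05 there were 3 (4.99% of all probe sets reach this), all below 0. Among 8 basolateral carriers, which take up bile salts and organic anions from blood or, as Slc51a and Slc51b, release bile salts into it, 2 were above 0 and 6 below (median -0.0809). The organic anion importer Slco1a1 read 11.11, 11.04 and 11.23 on wildtype and 11.00, 10.79 and 10.78 on knockout arrays, without overlap (difference -0.27, SE 0.0879, adjusted p = 0.951). Slco1b2 (-0.20) did not overlap either and was not called (adjusted p = 0.982), and the anion carrier Slc22a7 differed by 0.26 (adjusted p = 0.982).

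Of 11 partners at the canalicular membrane, 5 were above 0 and 6 below (median -0.0150). The scaffold gene Slc9a3r1, whose product anchors apical membrane proteins, differed by -0.28 (adjusted p = 0.955). The proton antiporter Slc47a1 (-0.20) and the membrane linker Ezr (0.18) had adjusted p of 0.982. Of 10 nuclear receptors and regulators, which control many ABC genes, 6 were above 0 (median 0.0807); the oxysterol receptor Nr1h3, which drives Abca1, Abcg1, Abcg5 and Abcg8, differed by 0.22, Rxra by 0.12 and Nfe2l2 by 0.14, each at an adjusted p of 0.982.

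Sterol and HDL partners had 6 of 10 above 0 (median 0.0288), with 0.19 for the sterol carrier Npc2, -0.12 for Mylip, which degrades the LDL receptor, and -0.18 for Npc1 (adjusted p from 0.982 to 0.983). Peroxisome partners had 5 of 10 above 0 (median 0.00488), with -0.21 for Pex11a, 0.11 for Hsd17b4 and 0.11 for the import receptor Pex5 (adjusted p = 0.982 for each). Of 7 glycolipid and ceramide carriers outside the family, 4 were above 0 (median 0.00488). Cptp, a ceramide 1-phosphate carrier, read 8.03, 8.04 and 7.99 on wildtype and 8.08, 8.32 and 8.19 on knockout arrays, without overlap (difference 0.18, adjusted p = 0.982). Mttp, which loads lipid onto apolipoprotein B, differed by -0.18 and Plekha8, which carries glucosylceramide through the Golgi, by -0.09 (adjusted p = 0.982 for each).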

How the data were processed

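Expression was measured in liver RNA of 3 wildtype and 3 Ugcg-deficient samples with Affymetrix arrays, per the labels' protocols. The deposited values were taken as log2 expression, since they run from 5.38 to 14.7; the authors' normalization and their software were not given in the sources used here. Of 16395 rows, 64 controls (AFFX) were left out. Platform annotation named 15644 of 16331 gene probe sets, and 687 stayed unnamed. All 42 members matched the RefSeq gene table of GRCm38.p6.

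Knockout was compared with wildtype by limma 3.58.1 (R 4.3.3; lmFit and eBayes, two-sided, with 4 residual degrees of freedom and 4.85 from the prior) over all gene probe sets, with Benjamini-Hochberg adjustment and a threshold of 0.05, after a test on simulated data. In 10 simulated draws with 200 changed probe sets each, 83.7% of differences of 0.5 in log2 and 99.2% of those of 1 were called. Of the calls, a mean of 6.56% were false. The simulated noise was independent for each probe set, so these shares need not hold for these arrays. With 3 arrays a group the smallest exact permutation p is 0.1. Correlations used all 720 permutations of 6 arrays (two-sided). Figures used matplotlib 3.10.9. Members and lists were chosen with earlier results of these data known. All values were given for canalicular, sterol, peroxisomal and glycolipid members and the 5 members with the smallest p in each direction. The smallest p was named in every other role, with 3 genes for each list of partners; other names are for completeness. Alternatives were quantile normalization, median centring, a filter at the 40th percentile, a robust variance trend, weights for array quality, leaving out each array, and, added after seeing the data, leaving out wildtype 430 and knockout 427 together.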

Additional observations from a re-analysis of the deposited data

How the results depend on the processing

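No ABC member passed an adjusted p under 0.05 in any of the 12 refits (other normalization, centring, filter, variance model and weights, each array left out, and wildtype 430 and knockout 427 left out together), while all gene probe sets gave 0 to 8 calls. In place of the adjusted p, an unadjusted p called 2 members (4.76%, beside 4.99% of all probe sets) and non-overlapping groups 4 (9.52%, beside 9.57%). The unadjusted count was 2 to 4 with 1 array left out, and the share of all probe sets in those refits is not given here. It was not always of the same members (Abcg2 in place of Abcb10 without wildtype 428, and Abcg1 in place of Abcb10 without wildtype 430 and knockout 427). The median difference of the members ran from -0.0234 to 0.0340 over the refits. Of 24 members with all values given, 10 turned sign with 1 array left out, over these ranges: Abca2 -0.0283 to 0.248, Abcb1b -0.131 to 0.0264, Abcb4 -0.0417 to 0.169, Abcc2 -0.176 to 0.00130, Abcc9 -0.0306 to 0.0553, Abcd2 -0.127 to 0.123, Abcd3 -0.0296 to 0.122, Abcg1 -0.0666 to 0.148, Abcg5 -0.215 to 0.199 and Abcg8 -0.121 to 0.1997. Abcg5 was also -0.0152 after quantile normalization and -0.0408 with array weights. The 24 were chosen partly by smallest p. With 1 array left out, all other members except Abca4, Abca16 and Abcc5 turned sign as well, such as Abca8a (-0.0387 to 0.168) and Abcb6 (-0.0752 to 0.166). Without wildtype 430 and knockout 427 the sign turned for Abcb4 (-0.0371), Abcc2 (0.000977), Abcc9 (-0.0469), Abcg5 (-0.169) and Abcg8 (-0.0576); the cause was not tested. No paired analysis was possible because the groups share no replicate numbers. The number of arrays limits the precision.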
